A study of Mus musculus with 31 samples.

Results

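Sox2, Hes5, Nes, Neurog2, Eomes, Insm1, Sox4, Sox11 and Dcx are 9 genes that mark the steps from neural stem cell to immature neuron in the hippocampus, and they were chosen by name from the 21883 protein-coding genes of the mouse annotation. H3K4me3, histone H3 trimethylated at lysine 4, was read at each of them as the peaks within 2 kb of either gene end on the mm10 assembly, and as the regions of the authors' lists of differences within the same distance. An H3K4me3 peak was present at 8 of the 9 genes in at least 1 library, beside 13829 of all 21883 genes, and Dcx had none. Chromatin immunoprecipitation followed by sequencing had been done on whole hippocampi of 16 C57BL6 mice aged 30 days, in 4 groups of 4 H3K4me3 libraries. The groups were KMT2D+/bGeo mice given TAK-418 (heterozygote TAK-418), KMT2D+/bGeo mice given vehicle (heterozygote vehicle), KMT2D+/+ mice given TAK-418 (wild type TAK-418) and KMT2D+/+ mice given vehicle (wild type vehicle). Heterozygotes carry 1 Kmt2d allele interrupted by a bGeo insertion, and Kmt2d encodes a methyltransferase of H3K4. TAK-418 inhibits LSD1, the H3K4 demethylase encoded by Kdm1a. Mice received 1 mg/kg of it daily by mouth over 2 weeks in methylcellulose, or methylcellulose alone, so that all 4 groups were gavaged. The same mice gave 15 H3K4me1 libraries, a mark of enhancers.

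In the dentate gyrus of the hippocampus, radial glia-like stem cells lie in the subgranular zone and give rise to new granule neurons after birth. Sox2, a transcription factor, maintains the stem cells, Notch signalling keeps them undivided through targets such as Hes5, and they contain the intermediate filament nestin, encoded by Nes. The proneural factor Neurog2 and then Eomes (Tbr2) and Insm1 act in intermediate progenitors, and Sox4, Sox11 and the microtubule-binding protein doublecortin, encoded by Dcx, act in immature neurons. These cells are a small part of the hippocampus, and in a whole tissue a mark in fewer cells and a weaker mark per cell cannot be told apart. Which cells carried a peak cannot be told either, so a peak at a member need not come from progenitors or immature neurons.

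The promoters of the members differ in CpG content, and sequences that stand for the range are printed here because the presence of a peak goes with it across the genome. RefSeq promoters on GRCm38.p6, 250 bases before to 50 bases after the start site, were found for 8 of the 9 members and for 17491 genes in all, with a median of 13 CpG dinucleotides. The promoter of Sox2 (chr3:34649745-34650044, plus strand) had 27 CpG, that of Sox4 (chr13:28953650-28953949, minus strand) had 12, that of Eomes (chr9:118477939-118478238, plus strand) had 10 and that of Dcx (chrX:143933170-143933469, minus strand) had 3. They are written 5′ to 3′ with each CG in capitals.
Sox2: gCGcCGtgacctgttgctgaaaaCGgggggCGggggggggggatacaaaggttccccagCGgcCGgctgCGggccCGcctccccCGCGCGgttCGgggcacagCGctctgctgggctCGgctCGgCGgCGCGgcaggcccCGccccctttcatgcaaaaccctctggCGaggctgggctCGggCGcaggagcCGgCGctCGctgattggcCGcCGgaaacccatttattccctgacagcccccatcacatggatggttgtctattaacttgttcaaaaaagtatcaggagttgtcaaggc
Sox4: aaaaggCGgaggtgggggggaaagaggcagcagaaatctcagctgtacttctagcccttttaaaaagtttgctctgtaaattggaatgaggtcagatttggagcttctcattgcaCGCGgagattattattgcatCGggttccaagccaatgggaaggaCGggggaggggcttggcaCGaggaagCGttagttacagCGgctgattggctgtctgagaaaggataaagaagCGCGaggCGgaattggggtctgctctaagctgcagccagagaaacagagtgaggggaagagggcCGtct
Eomes: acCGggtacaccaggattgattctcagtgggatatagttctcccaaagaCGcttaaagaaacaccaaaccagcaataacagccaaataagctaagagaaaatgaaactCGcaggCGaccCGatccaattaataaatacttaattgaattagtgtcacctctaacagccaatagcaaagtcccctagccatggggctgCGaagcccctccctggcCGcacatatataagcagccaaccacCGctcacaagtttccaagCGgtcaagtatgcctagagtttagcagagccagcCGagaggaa
Dcx: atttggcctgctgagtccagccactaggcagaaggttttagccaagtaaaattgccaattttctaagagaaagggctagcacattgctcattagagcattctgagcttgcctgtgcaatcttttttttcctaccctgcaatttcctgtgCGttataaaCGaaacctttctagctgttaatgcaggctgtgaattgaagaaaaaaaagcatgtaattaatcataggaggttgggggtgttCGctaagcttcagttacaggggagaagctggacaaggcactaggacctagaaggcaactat
The promoter of Hes5 (chr4:154960673-154960972, plus strand) had 41 CpG, the most of the 8. It is printed for its matches to GTGGGAA, a core sequence recognised by RBPJ, the DNA-binding partner of Notch, with both matches in capitals, the first on the minus strand and so read as its reverse complement.
Hes5: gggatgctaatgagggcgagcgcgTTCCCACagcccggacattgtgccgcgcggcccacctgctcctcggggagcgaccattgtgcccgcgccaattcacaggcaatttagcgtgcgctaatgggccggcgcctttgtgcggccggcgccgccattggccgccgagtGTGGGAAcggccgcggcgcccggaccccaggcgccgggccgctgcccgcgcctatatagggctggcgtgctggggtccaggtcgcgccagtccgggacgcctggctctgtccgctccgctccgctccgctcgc

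The matches to GTGGGAA in Hes5 lay at −226 to −220 and at −83 to −77 from the start site. Across all 17491 promoters, searched on both strands, 6.06% held this sequence at least once and 0.269% at least 2 times. The other 7 promoters of members held none. Sox4 held 4 matches to CCAAT on either strand, which 1.34% of promoters equalled or exceeded, while 39.2% held at least 1. Dcx was the only one of the 8 with TATAAA, found in 13.3% of promoters. CANNTG, the E box read by proneural factors, was present in Sox2, Hes5, Sox4 and Sox11 and in 68.8% of all promoters. These matches overlap no other motif searched and describe the letters of the window only.

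Over all genes a peak was more frequent the more CpG the promoter had, and the members are set beside genes of their own class. In the 4 libraries described next, a peak lay at an end of 16.6% to 21.3% of genes with 3 to 5 promoter CpG, the class of Dcx, which had a peak in 0 of the 4. Genes with 6 to 10 CpG, the class of Neurog2 and Eomes, had one in 39.0% to 47.7%, and Neurog2 had a peak in 4 of the 4 libraries and Eomes in 3. The share was 70.5% to 79.0% in the class of Sox4 (11 to 15 CpG), 86.1% to 91.9% in that of Nes and Sox11 (16 to 25) and 92.6% to 95.3% in that of Sox2 and Hes5 (26 or more), and all 5 genes had a peak in each of the 4 libraries. The GC content of these promoters ran from 43% in Dcx to 72.7% in Hes5, beside a median of 56.3%.

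**Figure D1:**
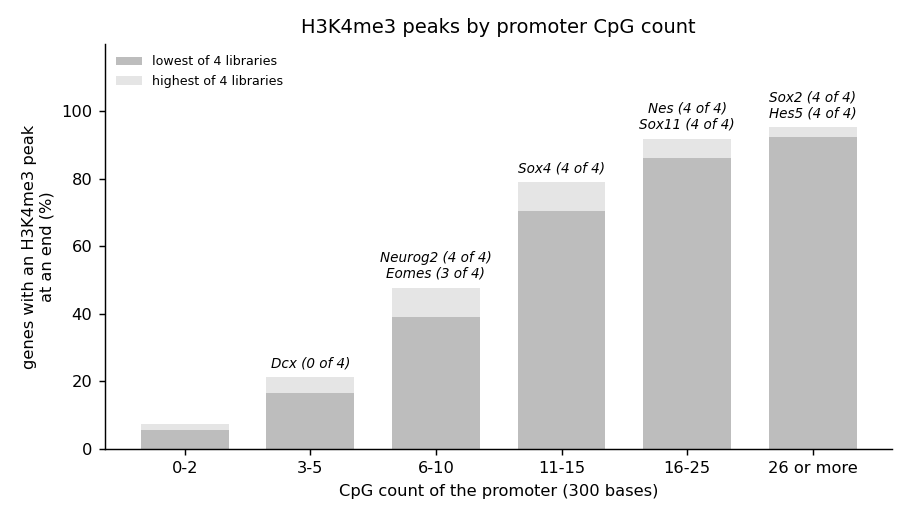
Share of genes with an H3K4me3 peak within 2 kb of an end (vertical axis, percent) by the number of CpG in the 300-base promoter (horizontal axis), with the lowest and the highest of the 4 libraries of index sets 1 and 2 as dark bar and light top. Members stand above their class with the number of those libraries in which they had a peak, from Dcx (0 of 4) in a class at 16.6% to 21.3% to Sox2 and Hes5 (4 of 4) in a class at 92.6% to 95.3%.

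The H3K4me3 libraries fell into a rich and a sparse set, and this touches every value below. As inferred from the index sequences in the labels, 1 library per group carried an index of sets 1 and 2. These 4 held 13343 to 16750 peaks. The rich wild type vehicle library, with 13343, was the only one of set 2, and the others were of set 1. The 12 libraries of sets 3 and 4, 3 per group, held 302 to 2281 peaks and had a peak at an end of 49 to 1953 genes. The lists give no read depth, so the precision of a single peak is unknown. As a check of the tissue by short marker lists, in the 4 rich libraries a peak lay at 5 to 6 of 6 genes of excitatory hippocampal neurons, at 2 to 3 of 5 of inhibitory neurons, at 2 to 3 of 4 of astrocytes, at 3 to 4 of 4 of oligodendrocytes and at 0 to 1 of 4 of microglia. Genes of vascular cells had 1 to 2 of 3, choroid plexus 1 of 3, blood cells 0 to 1 of 3 and tissues outside the brain 0 to 1 of 5. Kmt2d had a peak in 5 of 16 libraries, as did Kdm1a. Y chromosome peaks outside its distal end were found in 3 of 4 heterozygote TAK-418 and 2 of 4 heterozygote vehicle libraries. They were found in 2 of 4 wild type TAK-418 and 1 of 4 wild type vehicle libraries. The rich wild type vehicle library had 0 such peaks, beside 10 in rich heterozygote TAK-418, 29 in heterozygote vehicle and 19 in wild type TAK-418. Among rich libraries, a difference of wild type vehicle from the others therefore cannot be told apart from one of index set or sex. The part of sex in any difference was not tested.

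Most of the neurogenesis genes were marked in each rich library and in almost none of the sparse ones. Of the 9 members, 8 had a peak in the rich heterozygote TAK-418 library (replicate 3), 8 in the rich heterozygote vehicle library (replicate 2), 8 in the rich wild type TAK-418 library (replicate 3) and 7 in the rich wild type vehicle library (replicate 3). Over all protein-coding genes the shares in these libraries, in the same order, were 58.8%, 56.1%, 60.1% and 55.1%. The higher share of the members rested on weak peaks. With only peaks of a −log10 q of at least 5, 2, 1, 5 and 3 members kept one, in the same order. So did 9064, 3796, 9057 and 6721 of all 21883 genes. The members' share was then below that of all genes in both heterozygote libraries and above it in both wild type libraries. In the 12 sparse libraries the members had 1 peak in all, at Nes in wild type TAK-418 replicate 4, 243 bp long with a fold enrichment of 4.11. The fold enrichment is the authors' value for a peak over its local background. Counting libraries with and without a peak in Fisher's exact tests over all genes, adjusted by Benjamini-Hochberg, no gene passed 0.05 in any of the 4 comparisons between groups (0% of 11410, 11782, 11912 and 11815 genes tested; 0 also at an unadjusted p under 0.05). The members tested had an adjusted p of 1 in each comparison. The smallest p this test can give with 4 against 4 libraries is 0.0286, which needs a peak throughout 1 group and none in the other. With 1 rich library per group the test could hardly pass after adjustment over so many genes. No conclusion on the members is drawn from it. In heterozygote vehicle against wild type vehicle mice, Eomes had a peak in 1 of 4 against 0 of 4 libraries, as it did in both TAK-418 groups against wild type vehicle, too few to enter the test.

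The members carried long peaks with moderate enrichment. Their median summed length, over those with a peak, was 2460.5 bp in the rich heterozygote TAK-418 library, 1918 bp in heterozygote vehicle, 2668 bp in wild type TAK-418 and 2513 bp in wild type vehicle. Over all genes with a peak the medians were 1176, 1029, 1185 and 978 bp in the same libraries. The members longer than that median numbered 8 of 8, 6 of 8, 7 of 8 and 6 of 7. Their fold enrichment did not stand out in that way, with 0 of 8, 4 of 8, 3 of 8 and 2 of 7 above the median of all genes with a peak. That median was 6.20, 4.36, 6.40 and 5.54 in the 4 libraries, and the median over the members was 5.16, 4.21, 5.78 and 4.96. With only 1 rich library per group, these lengths were not compared between groups by a test.

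**Figure D2:**
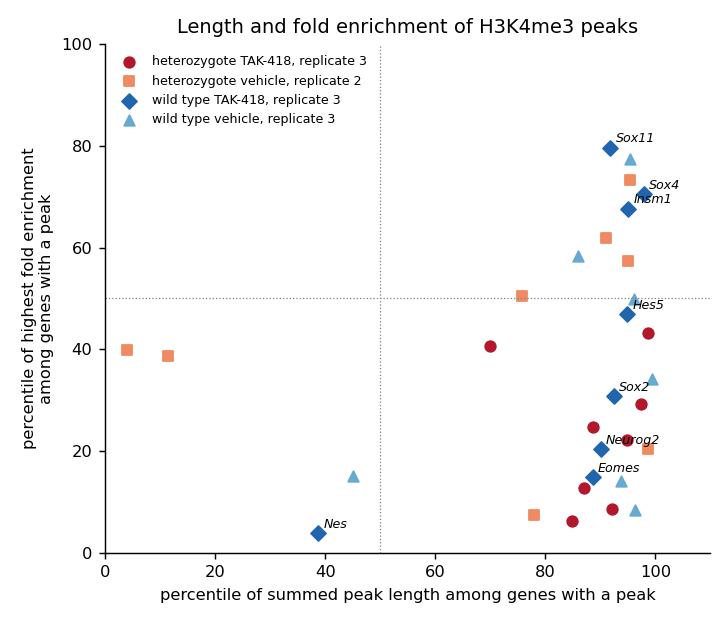
Percentile of the summed peak length (horizontal axis) against percentile of the highest fold enrichment (vertical axis) of each member among all genes with an H3K4me3 peak in the same rich library, with 1 symbol per library and names beside the wild type TAK-418 points. Sox4 lies at a length percentile of 95.4 to 99.3 in the 4 libraries, whereas its fold enrichment lies at 29.2 to 73.3.

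Among the stem cell genes, Sox2 (chr3:34649995-34652461) had a summed peak length of 1558 bp in the rich heterozygote TAK-418 library, 3590 bp in heterozygote vehicle, 2697 bp in wild type TAK-418 and 2705 bp in wild type vehicle. The heterozygote vehicle peak was the longest and had the lowest value, at 3.42-fold. The shorter heterozygote TAK-418 peak had 5.86-fold, wild type TAK-418 5.34-fold and wild type vehicle 3.80-fold. Among marked genes of the same library, however, the wild type vehicle peak ranked lowest in fold enrichment, at the 8.47 percentile, beside 20.5 in heterozygote vehicle. In 3 of the 4 libraries the peak ran across the start site, from 1401 to 1315 bp upstream of it, and in heterozygote TAK-418 it began 125 bp downstream. A separate peak of 561 to 846 bp lay about 7 kb upstream in each of the 4 libraries, 6947 to 7266 bp from the start site.

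Hes5 (chr4:154960626-154962372) had 4289 bp in heterozygote TAK-418, 2236 bp in heterozygote vehicle, 3031 bp in wild type TAK-418 and 2513 bp in wild type vehicle. In heterozygote TAK-418 this was 1 unbroken peak, and in the other 3 libraries it was a peak of 1478, 1639 and 1591 bp at the gene and a second one of 758, 1392 and 922 bp, which lay 1367 to 1729 bp from the nearer gene end. The ends of the protein-coding gene Pank4 and of the long non-coding RNA gene Gm42363 lie within reach of these peaks, so their length belongs to Hes5 only in part. The highest fold enrichment of a Hes5 peak was 5.89 ± 0.83 (SD, n = 4 libraries).

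Nes (chr3:87971093-87980451) was the least extensive of the marked members, with 2059 bp in heterozygote TAK-418, 489 bp in heterozygote vehicle, 1003 bp in wild type TAK-418 and 915 bp in wild type vehicle. The lowest and the highest of these stood at the 11.5 and 84.8 percentiles of length among marked genes of their library. Its fold enrichment was 3.93 ± 0.37 (SD, n = 4), below the median of all genes in each of the 4 libraries. Of the 1003 bp, 743 bp lay at the start and 260 bp at 1969 bp from the far end of the gene. In each rich library a separate peak 18062 to 19119 bp from its nearer end lay at Bcan, the gene of a brain chondroitin sulfate proteoglycan.

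The proneural gene Neurog2 (chr3:127632733-127635636) had 2179 bp in heterozygote TAK-418, 355 bp in heterozygote vehicle, 2456 bp in wild type TAK-418 and 2339 bp in wild type vehicle. The heterozygote vehicle library stood apart, with a peak that ended 303 bp upstream of the start site, while in the other 3 the peak ran from 722 to 846 bp upstream to 1456 to 1609 bp downstream. Fold enrichment varied little, from 4.05 in heterozygote vehicle to 4.71 in wild type TAK-418. As a percentile among marked genes of the same library it was highest in heterozygote vehicle, at 39.8, and 12.7 to 20.4 in the others.

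Both intermediate progenitor genes were marked, Eomes less regularly than Insm1. Eomes (chr9:118478186-118486132) had 2621 bp in heterozygote TAK-418, 1600 bp in heterozygote vehicle, 2342 bp in wild type TAK-418 and no peak in wild type vehicle. Its heterozygote TAK-418 length was made of pieces of 730, 445 and 1446 bp, the last beyond the far end of the gene near the long non-coding RNA gene Gm33460, and the peak at the start is shared with Gm33408. Its fold enrichment was 3.86 ± 0.82 (SD, n = 3 libraries with a peak), and was below the median of all genes in each of them. Insm1 (chr2:146221997-146225020) had 2300 bp in heterozygote TAK-418, 1535 bp in heterozygote vehicle, 3039 bp in wild type TAK-418 and 1794 bp in wild type vehicle. Its fold enrichment in these libraries was 5.22, 4.37, 7.34 and 5.84.

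Sox4 and Sox11, related transcription factors of immature neurons, had the most even peak lengths. This did not hold for fold enrichment, which ran from 4.96 to 7.52 at Sox4 and from 4.58 to 8.11 at Sox11. The SD of 1.57 at Sox11 was the largest of the marked members. Sox4 (chr13:28948919-28953699) had 3547 bp in heterozygote TAK-418, 2759 bp in heterozygote vehicle, 3786 bp in wild type TAK-418 and 3860 bp in wild type vehicle, a mean of 3488 ± 504 bp (SD, n = 4). Its peak began 311 to 481 bp upstream of the start site and reached 2277 to 3474 bp into the gene, covering 47.6% to 72.7% of it. A second peak of 1517 to 2454 bp lay 4165 to 4455 bp upstream in each rich library, at the long non-coding RNA genes Gm46405 and Gm52067, and one of 396 bp lay there in the sparse wild type vehicle replicate 4. Sox11 (chr12:27334268-27342718) had 3002 bp in heterozygote TAK-418, 2659 bp in heterozygote vehicle, 2639 bp in wild type TAK-418 and 2686 bp in wild type vehicle, a mean of 2746.5 ± 171 bp (SD, n = 4). Inside Sox11 a separate peak of 915 to 1066 bp began 2760 to 3099 bp from the start site in all 4 rich libraries, outside the window used for the lengths. The upstream part of the Sox11 peak also reaches the long non-coding RNA gene Gm30855.

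Dcx (chrX:143855842-143933396), by contrast, had no peak within 2 kb of either end in any of 16 libraries. It is the standard marker of immature neurons in this tissue, and Sox4 and Sox11, of the same stage, each had a peak in 4 of 16.

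**Figure D3:**
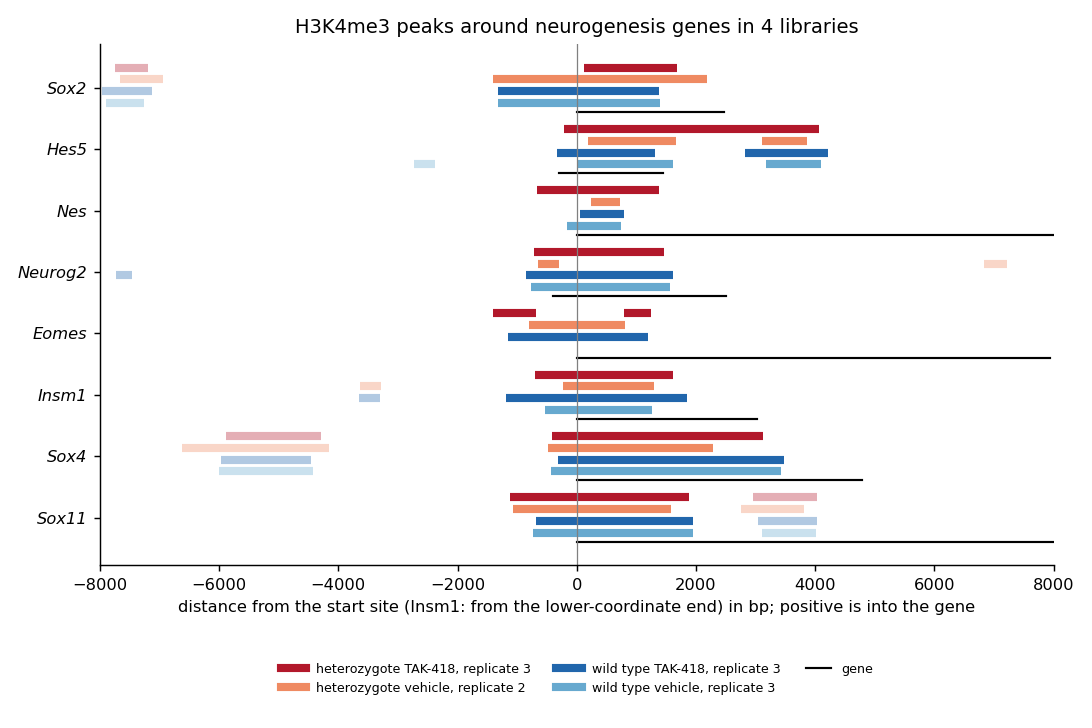
Position of H3K4me3 peaks around 8 members (bars, 1 row per rich library in the order of the legend) against distance from the start site in bp, with the gene as a black line, cut off at 8000 bp on both sides. Solid bars lie within 2 kb of a gene end and pale bars farther away. Insm1 is drawn from its lower-coordinate end. The pale peaks about 7 kb upstream of Sox2, over 4 kb upstream of Sox4 and inside Sox11 recur in all 4 libraries.

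Ordered by mean summed length over the rich libraries, Sox4 (3488 bp) came first, followed by Hes5 (3017 bp), Sox11 (2746.5 bp), Sox2 (2637.5 bp), Eomes (2188 bp, over 3 libraries), Insm1 (2167 bp), Neurog2 (1832 bp) and Nes (1116.5 bp). The ranges of the libraries overlapped for each pair of neighbours in this order. The SD was 171 bp for Sox11, the smallest of the 8, and 991 bp for Neurog2, the largest. Among 11244 genes with a peak in all 4 rich libraries, those with lengths most like Sox4 were H2bc7, a histone gene, Loxl3, of a lysyl oxidase family, and Mycn, a transcription factor of proliferating progenitors, with mean absolute differences of 0.07, 0.07 and 0.08 on the log2 scale over 4 libraries. Mycn had 3810 bp in heterozygote TAK-418, 2947 bp in heterozygote vehicle, 3933 bp in wild type TAK-418 and 4032 bp in wild type vehicle. For Nes the closest were Wdcp, Colca2 and Arhgef4, at 0.09, 0.12 and 0.15.

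**Figure D4:**
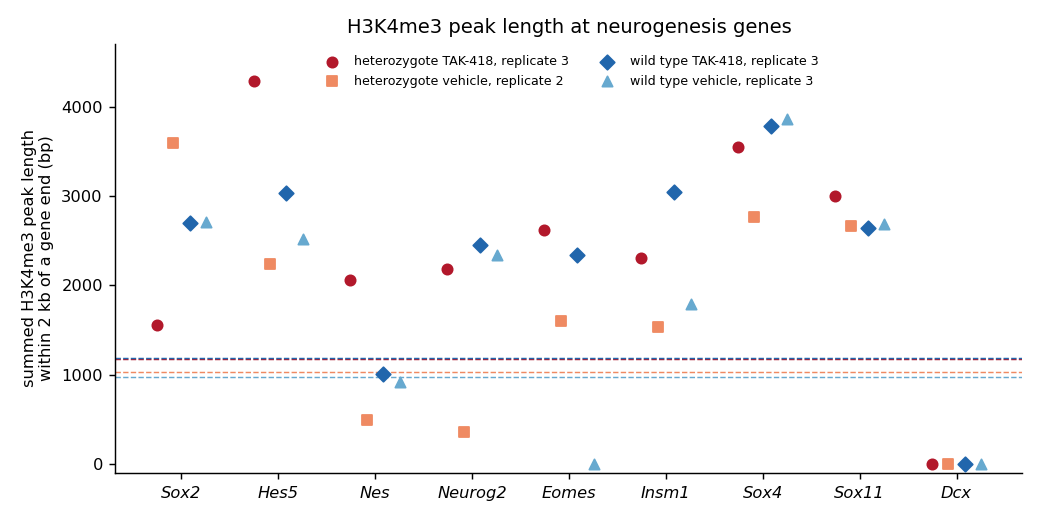
Summed length in bp of H3K4me3 peaks within 2 kb of an end of each member (vertical axis) in the 4 rich libraries, 1 symbol each, with dashed lines at the median of all genes with a peak in the same library (978 to 1185 bp). A value of 0 means no peak, as for Dcx and for Eomes in wild type vehicle. Sox2, Hes5, Insm1, Sox4 and Sox11 lie above the lines in all 4 libraries, and Nes in 3 of them and Neurog2 in heterozygote vehicle lie below.

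Other neurogenesis genes were also often marked. Of 38 further genes of the pathway, 26 to 34 had a peak in a rich library (68.4% to 89.5%). Over all protein-coding genes the share was 55.1% to 60.1%. Promoter CpG was not taken into account, and the difference was not tested. By role these were 11 to 13 of 15 stem cell and Notch genes and 12 to 14 of 16 genes of immature and maturing neurons. Of the proneural and cycling progenitor genes they were 3 to 7 of 7. The lowest, in heterozygote vehicle, was 42.9%, below the 56.1% of all genes there. Emx2, a forebrain patterning factor, had 5296 bp in heterozygote TAK-418, 2329 bp in heterozygote vehicle, 4551 bp in wild type TAK-418 and 4877 bp in wild type vehicle, and Hes1, like Hes5 a Notch target, had 3170, 2670, 2745 and 2449 bp. Hopx, Fabp7, Neurod4 and Calb2 had no peak in any rich library, as Dcx had none. Calb2 encodes calretinin, another marker of immature granule neurons.

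TAK-418 in wild type mice was the 1 of 4 comparisons in which the authors' list held regions at members. The listed regions were at Insm1, Sox4 and Sox11, each with a higher mean score with TAK-418, and 0 members had a lower one. This is 3 of the 8 marked members, where 15.8% of the 13829 marked genes had a region in the list and 9.28% a higher one. A score is the authors' normalized whole-number value of a region in a library, given without the library's name. Each of the 3 regions lay inside its gene, and within the gene's peak in the rich library of both groups.

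At Sox4 the region chr13:28952301-28953350, 349 bp inside the gene from its start, had scores of 155, 138, 492 and 174 in wild type TAK-418 mice, against 98, 75, 264 and 153 in wild type vehicle mice. The third score was the highest in each group and stood far above the rest with TAK-418, and the groups overlapped. The means were 239.75 ± 169 with TAK-418 and 147.5 ± 84.3 with vehicle (SD, n = 4 each), a ratio of 1.63 (two-sided exact permutation p = 0.457). In limma the log2 difference was 0.65 with an SE of 0.72 and an adjusted p of 0.770.

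At Insm1 the region chr2:146222401-146223150 had scores of 130, 141, 254 and 145 in wild type TAK-418 mice, against 57, 76, 202 and 70 in wild type vehicle mice. The groups overlapped only through the third vehicle score, and the other vehicle scores lay below all TAK-418 scores. The means were 167.5 ± 58.0 with TAK-418 and 101.25 ± 67.6 with vehicle (SD, n = 4 each), a ratio of 1.65 (exact permutation p = 0.2), and the log2 difference in limma was 0.86 with an SE of 0.73 and an adjusted p of 0.770.

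At Sox11 the region chr12:27341401-27341900, 818 bp from the start, had scores of 158, 58, 192 and 64 in wild type TAK-418 mice, against 39, 54, 115 and 66 in wild type vehicle mice. The groups overlapped, with 2 of the TAK-418 scores among the vehicle scores. The means were 118 ± 67.3 with TAK-418 and 68.5 ± 32.9 with vehicle (SD, n = 4 each), a ratio of 1.72 (exact permutation p = 0.229). The log2 difference in limma was 0.70 with an SE of 0.75 and an adjusted p of 0.770.

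None of the 3 differences passed 0.05 in limma after adjustment or in the exact permutation test. The regions of this list were chosen by the authors' p from the same libraries, so these tests are not independent of that choice. In simulated scores with the spread of the real ones, limma found 42 of 200 regions changed 4-fold. The lack of calls therefore sets no limit on differences of the size seen here. Over the 2780 regions of this list the median log2 difference was 0.32, and 0.52 over those listed as higher, and limma called 0% of them after adjustment, although 49 had an unadjusted p under 0.05. That count was 476 without the third TAK-418 score. The groups did not overlap at 0.54% of these regions and at none of the 3. The third score was the highest of its group at 76.9% of the regions in wild type TAK-418 and at 65.5% in wild type vehicle. In the other lists too the most frequent highest score was the third in these groups and in heterozygote TAK-418, and the second in heterozygote vehicle. These are the replicate numbers of the rich libraries, given here in accession order, but the order of the scores within a group is not stated in the files. With that score position as a covariate in limma, also chosen after the scores were seen, 0 of 2780 regions passed, 316 had an unadjusted p under 0.05, and the 3 log2 differences were as before, with adjusted p = 0.356 at Insm1, 0.356 at Sox4 and 0.362 at Sox11. Leaving out that score from both groups, an alternative chosen after the scores were seen, Insm1 had 138.7 ± 7.77 with TAK-418 and 67.7 ± 9.71 with vehicle (SD, n = 3 each; limma log2 difference 1.03, adjusted p = 0.338). The groups at Insm1 then no longer overlapped, which held at 21% of the regions of the list, of which 376 then had an unadjusted p under 0.05 and 0 passed. Sox4 then had 155.7 ± 18.0 with TAK-418 and 108.7 ± 40.1 with vehicle, and Sox11 93.3 ± 56.1 with TAK-418 and 53 ± 13.5 with vehicle, both still overlapping. The authors' deposited table gives a −log10 p of 3.30 for Insm1, 4.30 for Sox4 and 2.82 for Sox11.

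**Figure D5:**
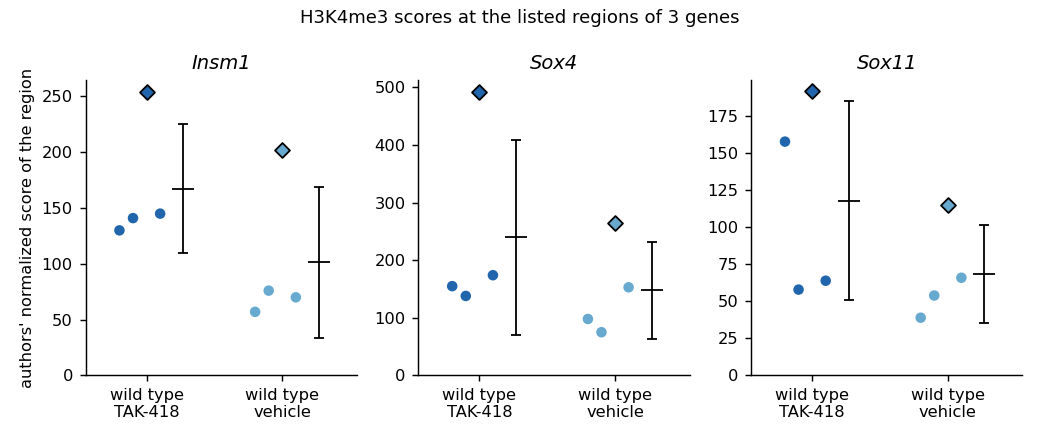
Authors' normalized score of the listed region at Insm1, Sox4 and Sox11 in wild type TAK-418 (left in each panel) and wild type vehicle mice (right), 4 scores per group, with the mean and SD beside them. The third score of each group is a framed diamond and is the highest of its group in each panel. Vertical axes start at 0 and differ between panels.

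In heterozygotes no member was in a list. TAK-418 against vehicle in heterozygotes had 1715 regions, at 6.62% of marked genes, and 0 of the 8 marked members. The genotype list for vehicle mice had 2015 regions at 11.4% of marked genes, and that of treated heterozygotes against untreated wild types had 2722 at 15.4%, again with 0 members in each. Lists hold only regions that the authors chose by p, so they give no score for a member outside them. Whether TAK-418 acted differently on Sox4, Sox11 or Insm1 in the 2 genotypes was not tested.

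Of the 34 further pathway genes with a peak, 1 (2.94%) had a region in the genotype list for vehicle mice, 1 (2.94%) in that for TAK-418 in heterozygotes, 3 (8.82%) in that of treated heterozygotes against untreated wild types and 2 (5.88%) in that for TAK-418 in wild types. Over all marked genes the shares were 11.4%, 6.62%, 15.4% and 15.8%, and the difference was not tested. Rest encodes a repressor of neuronal genes that acts in neural stem cells and binds the LSD1-CoREST complex. Heterozygote vehicle mice had scores of 71, 129, 43 and 123 at Rest, against 106, 214, 206 and 147 in wild type vehicle mice, with means of 91.5 ± 41.5 in heterozygotes and 168 ± 51.1 in wild types (SD, n = 4 each; exact permutation p = 0.0857). It was the 1 pathway gene in that list, listed as lower, and no pathway gene was listed as higher. In heterozygotes Rest was again the 1 pathway gene listed, with 114 ± 104 in TAK-418 mice and 79.3 ± 26.0 in vehicle mice (SD, n = 4 each; exact permutation p = 0.8), and 1 score of 268 carried the TAK-418 mean. In heterozygote TAK-418 against wild type vehicle mice 3 genes had a lower mean and none a higher one. These were Rest with 187 ± 177 against 237 ± 74.1, Stmn1, the gene of the microtubule regulator stathmin, with 69.5 ± 67.7 against 121.5 ± 79.3, and Ncam1, a neural cell adhesion gene, with 141.5 ± 159 against 223 ± 112 (SD, n = 4 each). In wild type mice, Bhlhe22, a factor of maturing neurons, had 231 ± 123 with TAK-418 and 151.5 ± 69.8 with vehicle, and Ncam1 had 181 ± 184 with TAK-418 and 257 ± 130 with vehicle (SD, n = 4 each). The groups overlapped at each of these regions. After adjustment limma called 0% of regions in each of these lists. The authors chose these regions by p too, and no conclusion is drawn from the lack of calls. Unadjusted, a p under 0.05 was found at 66 regions of the genotype list for vehicle mice, 3 of the list for TAK-418 in heterozygotes and 104 of the list that sets treated heterozygotes against untreated wild types. The counts were 540 for the first list without the second heterozygote vehicle score, and 181 and 1229 for the other lists without the third heterozygote TAK-418 score. With the score position most often highest as a covariate they were 412, 176 and 621, with 0 regions passing after adjustment in each.

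No H3K4me1 peak was called at these genes. None of the 15 libraries had an H3K4me1 peak within 20 kb of any of the 9 members, in lists of 88 to 456 peaks. The 4 lists of differences whose names give no mark, with 538 to 781 regions, likewise held 0 members within 20 kb. At this length of list the absence of a peak sets no limit on the mark.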

How the data were processed

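Peak lists of 16 H3K4me3 and 15 H3K4me1 libraries and the authors' lists of H3K4me3 differences were used. The submitters' processing notes name mm10 as assembly and, as tools, bedtools, MACS and MACS2. Not given in the sources used here are aligner, control library, thresholds and depth. Deposited peaks carry a fold enrichment (a ratio) and a −log10 q, and the lists of differences carry a −log10 p and 1 score per library, all computed by the authors; how the scores were normalized is not given.

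Genes and promoters came from RefSeq (GRCm38.p6). A peak counted for a gene within 2 kb of either end. Scores carry no library name and were compared only within a list, since lists were scaled separately, as log2(score + 1) with limma 3.58.1 (eBayes with trend, R 4.3.3), adjusted by Benjamini-Hochberg over the list, and per named region by exact two-sided permutation tests, whose smallest p with 4 against 4 is 0.0286. Presence was tested by Fisher's exact test where at least 2 libraries had a peak and at least 2 had none. Python 3.11.15 with pandas 2.3.3 and scipy 1.17.1 was used. All 9 members were named, and the pathway genes with a listed region. Other genes were named by the smallest mean absolute log2 difference in length. Emx2, Hes1 and the pathway genes without a peak were chosen after their values were seen. The members and lists were chosen with earlier results of these data known.

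Libraries of the same mark are from separate mice per the labels, and the H3K4me1 libraries are from the same mice as the H3K4me3 libraries. Index sets were inferred from index sequences. The scores name no library, so the index set itself was not a term in limma; the score position most often highest in each group was entered as a covariate instead, as an alternative chosen after the scores were seen. Tested on simulated data, limma found 200 of 200 regions changed 4-fold at a CV of 0.2, but 42 of 200 with the spread of the real scores (2780 regions, wild type TAK-418 against vehicle). Noise was drawn independently for each score, so a score position that is high across regions was not simulated. Changes smaller than 4-fold were not simulated either. Fisher's test found 0 of 200 after adjustment (11000 genes, 4 against 4 libraries).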

Additional observations from a re-analysis of the deposited data

Results flagged for a closer look

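A single value lay far from the other 3 of its group in 10 of 24 groups of 4 examined. Chance flags about 1 in 20 independent groups of normal values. The groups here share libraries and are not independent, and those of member counts repeat the split into rich and sparse libraries. The 10 are therefore not to be read against that rate. The measure is the gap to the nearest value divided by the range of the group. For the number of members with a peak per library it was 1 in heterozygote TAK-418, 1 in heterozygote vehicle, 0.875 in wild type TAK-418 and 1 in wild type vehicle mice, in each case through the library of index sets 1 and 2. For the scores in wild type TAK-418 against vehicle mice it was 0.879 at Insm1 with TAK-418 and 0.869 with vehicle, 0.898 at Sox4 with TAK-418 and 0.98 at Bhlhe22 with TAK-418. In heterozygote TAK-418 against wild type vehicle mice it was 0.923 at Rest and 0.832 at Ncam1, both in the TAK-418 group. In all 6 score groups the far value was the third and the highest. In heterozygote vehicle mice the score most often highest was the second (46.5% and 64.5% of regions in the 2 lists). These positions equal the replicate numbers of the libraries of index sets 1 and 2 in all 4 groups, although the files do not state the order of the scores.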

How the results depend on the processing

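Keeping peaks with a −log10 q of at least 5 left 2 marked members in heterozygote TAK-418 (Sox2 and Hes5), 1 in heterozygote vehicle (Sox4), 5 in wild type TAK-418 and 3 in wild type vehicle. Of all marked genes 70.5%, 30.9%, 68.9% and 55.8% remained, and Nes, Neurog2 and Eomes were left with none. Without trend, limma called 8 regions in heterozygote TAK-418 against wild type vehicle. Leaving out 1 score position at a time gave 0 to 3 calls there, with 3 without the fourth TAK-418 score and 1 without the second vehicle score. The other limma calls (53 of 56 alternatives) and all 52 Fisher alternatives stayed at 0. Fisher's test could hardly pass at this number of libraries, so its 0 is no sign of stability. The log2 differences at Insm1 (0.64 to 1.25), Sox4 (0.24 to 0.99) and Sox11 (0.40 to 0.98) kept their direction in all 42 alternatives. The adjusted p in limma lay between 0.338 and 0.936. The authors listed these regions by p, and the alternatives refit the same scores, so the kept direction is no support for a difference. Within 5 kb of an end, mean lengths became 5272 bp at Sox4 and 3754 bp at Sox11. Members in the lists stayed at 3 and 0 in the 12 alternatives. No paired analysis was possible because replicate numbers, given in accession order, only name samples and pair no mice across groups.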
